A study of Mus musculus with 18 samples.

Results

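Mt1 and Mt2 encode metallothioneins, and every probe set that the array's annotation gives to either gene was taken: 3 probe sets for 2 genes, of 45101 probe sets and 18194 named genes in all. Mt1 was read by a bright probe set, 1422557_s_at, and by a dim one, 1451612_at, and Mt2 by 1428942_at. The genes were picked with their signal by time and treatment already known, so their values below are a description and carry no p-value. The cells were macrophages grown for 7 days from bone marrow of IL-10-/- mice in medium with CSF-1, the macrophage growth factor, supplied as L cell conditioned medium. For treatment, in medium without CSF-1, they received LPS at 100 ng/ml plus IL-10 at 10 ng/ml, or LPS at 100 ng/ml alone, for 10, 20 or 30 min. LPS, from the outer membrane of Gram-negative bacteria, is sensed by Toll-like receptor 4, and the cytokine IL-10 acts on macrophages by way of STAT3, a transcription factor. Each of the 6 groups held 3 arrays, 1 from each of 3 independent experiments that followed one another. All groups were IL-10-/-, and untreated and wild-type cells were not analysed here, so each value compares IL-10 with its absence under LPS, or one time with another.

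Metallothioneins are small proteins rich in cysteine that bind zinc and copper, buffer free zinc and can react with oxidants. Their genes are switched on by zinc through the metal-sensing factor MTF1, which binds metal response elements in their promoters, and also by glucocorticoids, oxidative stress and cytokines, among them those that activate STAT3. Mt1 and Mt2 are the widely expressed members of the mouse family, while Mt3 is known mainly from brain and Mt4 from stratified epithelia.

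The 250 bases before the start of Mt1 and Mt2 are shown because metal response elements define how the pair is known to be controlled. Matches to the core of that element lie in both stretches, 3 in Mt2 and 1 in Mt1. Others lie after the starts, in Mt1 from bases 3 and 21, so these counts depend on where the start is annotated. Both come from the RefSeq promoter table on build GRCm38.p6, on the plus strand, and both genes had an entry. Mt1 covers chr8:94178839-94179088 and Mt2 chr8:94172368-94172617, and the 2 start sites are 6471 bases apart on the same strand. Capitals mark the core of the metal response element, TGCACNC or TGCGCNC, on either strand.
Mt1: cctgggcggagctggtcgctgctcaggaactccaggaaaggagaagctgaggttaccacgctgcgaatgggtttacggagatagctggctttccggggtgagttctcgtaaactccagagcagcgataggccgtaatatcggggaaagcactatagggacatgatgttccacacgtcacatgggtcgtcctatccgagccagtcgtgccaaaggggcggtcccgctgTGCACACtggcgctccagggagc
Mt2: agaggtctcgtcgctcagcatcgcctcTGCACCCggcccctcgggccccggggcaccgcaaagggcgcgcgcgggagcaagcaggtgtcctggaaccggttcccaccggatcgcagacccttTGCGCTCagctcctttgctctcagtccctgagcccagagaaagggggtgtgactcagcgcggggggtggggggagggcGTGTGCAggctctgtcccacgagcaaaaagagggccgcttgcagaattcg

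Over the table's whole window, 250 bases before to 50 after the start, the core occurred 4 times at Mt2 and 3 times at Mt1. Of the 32544 promoters in the table, 25.9% held it at least once, 0.522% held it at least 4 times and 1.99% at least 3 times. In Mt2 the matches began 223, 128 and 50 bases before the start, with 1 more after it, and in Mt1 1 match began 23 bases before the start and the other two lay after it. The STAT pattern TTCNNNGAA or TTCNNNNGAA, read on both strands like every motif here, was in neither window and in 14.6% of promoters. The glucocorticoid response element pattern GNACANNNTGTNC matched once, in Mt1, as GGACATGATGTTC beginning 94 bases before the start, and was found in 0.476% of promoters. The antioxidant response element core TGACNNNGC matched once, in Mt2, and in 12.4% of promoters. The E-box CACGTG and the heat shock element unit GAANNTTC were in neither window, with 7.17% and 7.89% of promoters holding them. These motifs did not overlap the metal response element cores, and a match is a run of letters, not a measured site.

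The arrays carried the macrophage identity of the cells: all 10 macrophage markers were tested, and their median signal stood between the 83.4th and the 99.9th percentile of the array. Of the B and T lymphocyte markers 3 of 10 passed the filter on low signal, and the highest of them, Cd79b, stood at the 60.7th percentile. The granulocyte markers, 7 of 8 tested, had a median percentile of 68.1 and ran from 56.9 to 95.7 for S100a8. The stromal markers, 6 of 7 tested, had a median percentile of 75.6 and ran from 31.8 to 96.1 for Acta2. The trimmed mean signal was the same on every array, so the scaling hides a change of total RNA per cell, and fewer cells of a type cannot be told apart from less RNA per cell. The arrays of experiments 2 and 3 in the group given LPS alone for 20 min stood apart, with lower quartiles of 34.1 and 38.7 against 21.9 to 31.1 on the other 16 arrays, and values without them are given beside the metallothionein differences that use them.

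Signal of Mt2 and of the bright Mt1 set was high on every array, and that of the dim Mt1 set was low to middling. The bright Mt1 probe set lay between the 97.5th and 98.3rd percentile of its array, and its signal ran from 6566 to 10566 over the 18 arrays, a 1.61-fold range. The Mt2 probe set lay between the 90.7th and 95.2nd percentile and ran from 1853 to 3773, a 2.04-fold range. The dim Mt1 probe set lay between the 28.9th and 76.0th percentile and ran from 36.0 to 483.7, a 13.4-fold range. It reached the array's own median on 10 of 18 arrays, whereas the other two did so on all 18. All 3 probe sets passed the filter for testing, a signal at the array median on at least 3 arrays, but the dim set passed through the groups in which it was high. No detection calls were used here, so the lowest values of the dim set cannot be told from background.

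After 30 min all 3 metallothionein probe sets were higher with IL-10 than with LPS alone, with no overlap between the arrays of the groups. The dim Mt1 probe set had 483.7, 417.3 and 402.1 signal units with LPS plus IL-10, against 131.5, 124.9 and 74.8 with LPS alone, in experiments 1, 2 and 3. The lowest array with IL-10 was thus far above the highest without it. Mt2 had 3328, 3437 and 3773 units with LPS plus IL-10, against 2076, 2714 and 2538 with LPS alone. Here too the groups were separate, with a narrower gap. The bright Mt1 probe set had 9426, 9009 and 9456 units with LPS plus IL-10, against 7141, 7870.2 and 7686 with LPS alone, again without overlap.

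On the log2(signal + 16) scale, on which every difference below is given, IL-10 plus LPS minus LPS at 30 min was 1.86 (SE 0.32) for the dim Mt1 set, 0.53 (SE 0.19) for Mt2 and 0.30 (SE 0.15) for the bright Mt1 set. The difference was positive in each experiment for all 3: 1.76, 1.62 and 2.20 for dim Mt1, 0.68, 0.34 and 0.57 for Mt2, and 0.40, 0.19 and 0.30 for bright Mt1. In signal, dim Mt1 averaged 434 ± 43.4 with LPS plus IL-10 and 110.4 ± 31.0 with LPS alone (SD, n = 3 each), a difference of 293% of the LPS level. Mt2 averaged 3513 ± 232 and bright Mt1 9297 ± 250 with LPS plus IL-10, against 2443 ± 329 and 7566 ± 379 with LPS alone, differences of 43.8% and 22.9%. Across all 27110 tested probe sets, 2.05% were higher with IL-10 at 30 min with no overlap between the groups. Ranked by the difference at 30 min, dim Mt1 stood 11th, Mt2 988th and bright Mt1 2482nd of the 27110, ranks that restate what chose the genes. All 10 macrophage markers were also higher on average with IL-10 at 30 min, by a median of 0.14, with a summed signal of 167400 to 179700 with LPS plus IL-10 and 136500 to 173400 with LPS alone; limma called none of them (0 at an unadjusted p under 0.05), and their part in the metallothionein values was not tested. The 4 tested dendritic cell markers were lower with IL-10, with a median of -0.43.

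**Figure D1:**
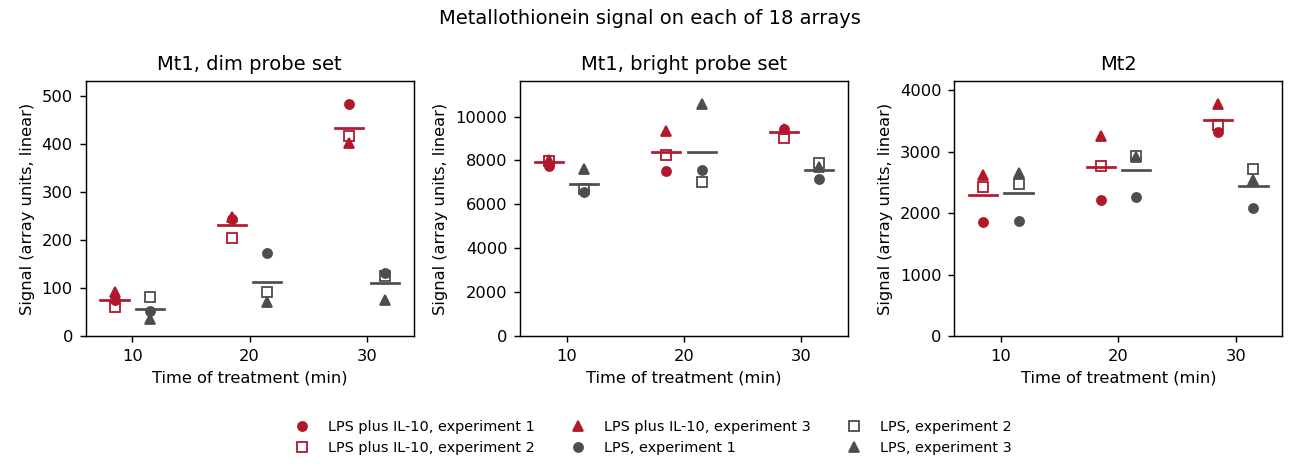
Deposited signal (linear array units) of the dim Mt1, bright Mt1 and Mt2 probe sets by time of treatment in min, 1 point per array, with LPS plus IL-10 in red left of LPS alone in grey, a symbol per experiment and a bar at the mean of 3 arrays. At 30 min the 3 red points of each panel lie above the 3 grey ones, and only in the dim Mt1 panel do they also lie wholly above at 20 min.

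At 20 min the probe sets parted. Dim Mt1 had 243.3, 204.8 and 248.6 units with LPS plus IL-10, against 173.5, 90.8 and 70.8 with LPS alone, so the groups did not overlap, as for 1.89% of all tested probe sets in that direction. The difference was 1.04 (SE 0.32), and 0.45, 1.05 and 1.61 in experiments 1, 2 and 3. Both larger differences come from the LPS arrays that stood apart. With both of those arrays left out, so that LPS alone rested on experiment 1, the difference was 0.38.

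Neither Mt2 nor bright Mt1 showed a difference beyond its SE at 20 min. Mt2 had 2216, 2774 and 3248 units with LPS plus IL-10, against 2267, 2925 and 2919.5 with LPS alone, a difference of 0.01 (SE 0.19). Bright Mt1 had 7503, 8264 and 9358 units with LPS plus IL-10, against 7587, 7036 and 10566 with LPS alone, a difference of 0.01 (SE 0.15). The groups overlapped for both, and 10566 in experiment 3 with LPS alone was the highest bright Mt1 value of all 18 arrays. Without both LPS arrays that stood apart the difference was 0.26 for Mt2 and 0.14 for bright Mt1. Those values set IL-10 arrays of 3 experiments against the LPS array of experiment 1 alone. Within experiment 1 the difference was -0.03 for Mt2 and -0.02 for bright Mt1. Without the LPS array of experiment 2 alone the bright Mt1 difference was -0.10, and without that of experiment 3 alone it was 0.19.

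At 10 min the groups overlapped for Mt2 and dim Mt1 and were separate for bright Mt1. Mt2 had 1853, 2431 and 2622 units with LPS plus IL-10, against 1878, 2477 and 2646 with LPS alone, a difference of -0.02 (SE 0.19) that was between -0.03 and -0.01 in the 3 experiments. Dim Mt1 had 75.1, 59.4 and 91.8 units with LPS plus IL-10, against 52.5, 82.1 and 36.0 with LPS alone. The difference was 0.36 (SE 0.32), and experiment 2 ran the other way at -0.38. Without experiment 2 it was 0.73 and without experiment 3 it was 0.02. Bright Mt1 had 7762, 7987.5 and 8008 units with LPS plus IL-10, against 6566, 6696 and 7589.5 with LPS alone. The lack of overlap held for 2.07% of all tested probe sets in that direction, and the difference was 0.19 (SE 0.15), with 0.24, 0.25 and 0.08 in the experiments.

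**Figure D2:**
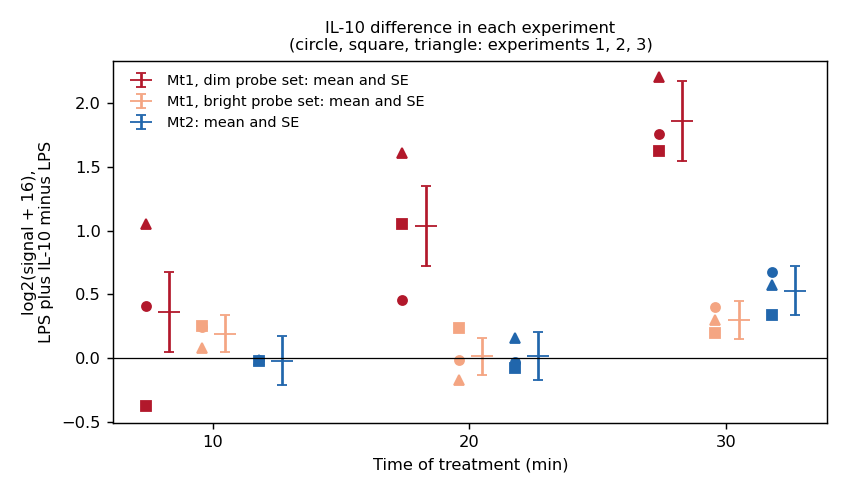
Difference in log2(signal + 16), LPS plus IL-10 minus LPS alone, at each time in min for the 3 metallothionein probe sets, with circle, square and triangle for experiments 1, 2 and 3 and a cross with bar for the mean and SE of the fit to 18 arrays. All 9 experiment points lie above 0 at 30 min, whereas at 20 min Mt2 and bright Mt1 average 0.01.

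Under LPS plus IL-10 the dim Mt1 probe set was higher at each later time. It averaged 75.4 ± 16.2 at 10 min, 232 ± 23.9 at 20 min and 434 ± 43.4 at 30 min (SD, n = 3 each), and no array of one time overlapped those of the next. The difference was 1.45 (SE 0.32) for 20 minus 10 min, 0.86 for 30 minus 20 min and 2.31 (SE 0.32) for 30 minus 10 min. The 30 minus 10 min value was 2.46, 2.52 and 1.96 in the 3 experiments. Its size rests on 10 min values of 59.4 to 91.8 units, which cannot be told from background. Groups without overlap in that direction made up 2.47%, 1.81% and 2.21% of all tested probe sets in the 3 comparisons.

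Mt2 under LPS plus IL-10 averaged 2302 ± 401 at 10 min, 2746 ± 517 at 20 min and 3513 ± 232 at 30 min. The arrays of 10 and 20 min overlapped, and those of 30 min lay above both. The difference was 0.25 (SE 0.19) for 20 minus 10 min, 0.37 for 30 minus 20 min and 0.62 (SE 0.19) for 30 minus 10 min, the last being 0.84, 0.50 and 0.52 in the experiments. Bright Mt1 averaged 7919 ± 136, 8375 ± 933 and 9297 ± 250 at the 3 times. Its arrays at 30 min lay above those at 10 min, with a difference of 0.23 (SE 0.15), while those at 20 min overlapped both.

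Under LPS alone no pair of times was free of overlap for any of the 3 probe sets. Dim Mt1 averaged 56.9 ± 23.4 at 10 min, 112 ± 54.4 at 20 min and 110.4 ± 31.0 at 30 min, and the 30 minus 10 min difference of 0.81 (SE 0.32) was positive in all 3 experiments, at 1.11, 0.52 and 0.80. Mt2 averaged 2334 ± 404, 2704 ± 379 and 2443 ± 329, with 30 minus 10 min at 0.07 (SE 0.19). Bright Mt1 averaged 6950.3 ± 557, 8397 ± 1899 and 7566 ± 379, with 30 minus 10 min at 0.12 (SE 0.15). Of all tested probe sets, 3.42% were higher without overlap at 20 than at 10 min under LPS alone, 2.03% at 30 than at 10 min and 2.92% at 30 than at 20 min. Without both arrays that stood apart, 20 minus 10 min under LPS alone was 1.43 for dim Mt1, against 0.78 with them, and -0.03 for Mt2, against 0.22 with them, and 0.13 for bright Mt1, against 0.25 with them. Those values set the 20 min array of experiment 1 against 10 min arrays of 3 experiments. Within experiment 1 the differences were 1.47 for dim Mt1, 0.27 for Mt2 and 0.21 for bright Mt1.

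Set in order, the dim Mt1 group means were 434 for IL-10 at 30 min, 232 for IL-10 at 20 min, 112 for LPS at 20 min, 110.4 for LPS at 30 min, 75.4 for IL-10 at 10 min and 56.9 for LPS at 10 min. The 2 highest groups were each separate from the next, and the neighbours below them overlapped. Without the arrays that stood apart, LPS at 20 min is the 173.5 units of experiment 1, still the third in the order. For Mt2 the group with IL-10 at 30 min was separate from the next, IL-10 at 20 min, and all lower neighbours overlapped. For bright Mt1 each neighbouring pair of groups overlapped, also the 2 highest, IL-10 at 30 min and LPS at 20 min.

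The bright and dim Mt1 probe sets carried the same symbol but changed unequally. The log2 value of the dim set minus that of the bright set was larger by 1.56 with LPS plus IL-10 than with LPS alone at 30 min, and by 1.36, 1.43 and 1.91 in experiments 1, 2 and 3. At 20 min it was larger by 1.02, and by 0.47, 0.82 and 1.78 in the experiments. Without the 2 LPS arrays that stood apart, so that LPS alone rested on experiment 1, it was larger by 0.25. At 10 min the change was 0.17, with 0.17, -0.63 and 0.97 in the experiments. From 10 to 30 min it grew by 2.08 under LPS plus IL-10 and by 0.69 under LPS alone, against an SD within groups of 0.46, or 0.35 without the arrays that stood apart. The suffix _s_at is the manufacturer's mark for probe sets whose probes can match more than one transcript, and probe sequences were not used here, so what part of which Mt1 transcript each set reads was not tested. Nor was the share of Mt2 RNA, or of background, in either Mt1 set.

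How much of the variance lay between groups also differed. For dim Mt1 90.2% of the variance in log2 signal over the 18 arrays was between the 6 groups, 2.48% between experiments and 7.36% was left. For Mt2 the shares were 56.5%, 37.4% and 6.11%. Experiment 1 gave the lowest Mt2 value in 6 of 6 groups, and the experiment means were 2270.0, 2793 and 2958 units. With the experiment as a block, which takes that offset out, the SE of an Mt2 difference was 0.10 in place of 0.19. For bright Mt1 the shares were 51.6%, 22.1% and 26.3%, and the SE was 0.11 in place of 0.15. Over the 15 arrays of the other 5 groups, without LPS alone at 20 min, the share between groups was 93.9% for dim Mt1, 60.2% for Mt2 and 76.5% for bright Mt1, an alternative chosen after seeing the data.

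After the mean of each experiment was taken out, Mt2 and dim Mt1 were the most alike of the 3, with Pearson's r = 0.88 over 18 arrays. Bright Mt1 gave r = 0.72 with Mt2 and r = 0.67 with dim Mt1. Without the 2 arrays that stood apart these were 0.92, 0.83 and 0.81. All of these values share the arrays, their scaling and the experiments, and they describe likeness over arrays without a test.

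Among 22771 other probe sets with 1 symbol, the 5 most like dim Mt1 by the same measure were 3 probe sets of Socs3 (r = 0.96 for 1416576_at, 0.95 for 1456212_x_at and 0.93 for 1455899_x_at), Etv3 1456358_at (r = 0.94) and Gadd45g 1453851_a_at (r = 0.935). Socs3 encodes an inhibitor of cytokine receptor signalling, Etv3 a transcriptional repressor of the ETS family and Gadd45g a stress sensor. The 5 most like Mt2 were Etv3 1418635_at (r = 0.91), Sbno2 1458308_at (r = 0.91), Socs3 1416576_at (r = 0.88), Etv3 1418637_at (r = 0.84) and Sbno2 1439349_at (r = 0.84), Sbno2 being a co-repressor. Without the 2 arrays that stood apart, r was between 0.93 and 0.96 for the dim Mt1 set and between 0.87 and 0.95 for the Mt2 set. The 5 most like bright Mt1 were Whamm (r = 0.83), Errfi1 (r = 0.82), Reep5 (r = 0.78), Slc20a1 (r = 0.77) and Cep350 (r = 0.77). Without those 2 arrays r was lower for all 5 of them, between 0.70 and 0.82. None of these bright Mt1 neighbours was called by limma for IL-10 at 30 min, where each had an adjusted p of 1.00.

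**Figure D3:**
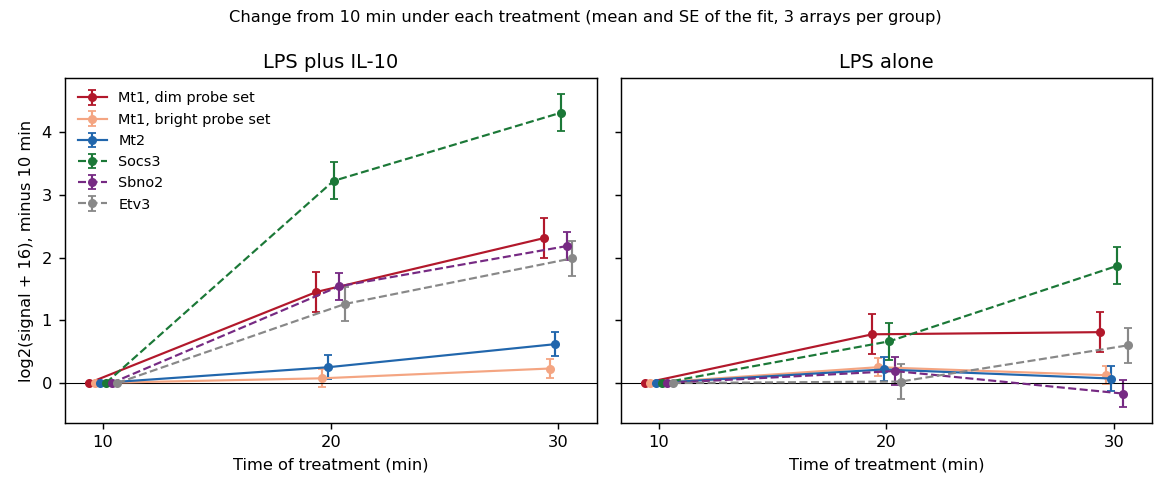
Difference in log2(signal + 16) from the 10 min group of the same treatment (mean and SE of the fit, 3 arrays per group) against time in min, with LPS plus IL-10 left and LPS alone right, solid lines for metallothionein probe sets and broken lines for Socs3, Sbno2 and Etv3. At 30 min dim Mt1 reached 2.31 with LPS plus IL-10 and 0.81 with LPS alone, and Mt2 0.62 and 0.07.

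Probe sets of Socs3 and Sbno2 give examples of changes that passed the test. At 30 min Socs3 1455899_x_at averaged 10873 ± 454 with LPS plus IL-10 and 2196 ± 1134 with LPS alone (SD, n = 3 each), a log2 difference of 2.42 (limma adjusted p = 0.00464). Sbno2 1439349_at averaged 2150.1 ± 286 with LPS plus IL-10 and 367 ± 67.3 with LPS alone, a log2 difference of 2.51 (limma adjusted p = 7.24e-05). Both of these probe sets were higher with IL-10 in limma's test, as were 0.0111% of tested probe sets at 30 min, or 0.0443% with the experiment as a block. Without the block, leaving out 1 experiment left 0 to 1 probe sets called at 30 min, and leaving out both arrays that stood apart gave 6. The Sbno2 difference between treatments also grew from 10 to 30 min, by 2.35 (limma adjusted p = 0.0221), as did that of 0.00369% of tested probe sets, or 0.0184% with the block, against 0.00738% with the block from 10 to 20 min. The dim Mt1 difference of 1.86 lay below both and had an SE of 0.32, against 0.30 for Socs3 and 0.22 for Sbno2.

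Of the other members of the family Mt3 gave no call for IL-10, and Mt4 was too dim to be tested. Mt3, read by 1420575_at, ran from 14.3 to 202.5 units, reached the array median on 4 arrays and averaged 51.2 ± 23.0 with LPS plus IL-10 and 55.4 ± 64.2 with LPS alone at 30 min (SD, n = 3 each). Its log2 difference was 0.21 (SE 0.70, limma adjusted p = 1.00), and 59.5% of its variance lay between experiments. Mt4, read by 1450645_at, ran from 3.4 to 137.1 units and reached the median on 1 array. At 30 min its groups did not overlap either, with 39.6 to 50.2 units with LPS plus IL-10 against 7.0 to 38.2 with LPS alone. That difference was 0.68 (SE 0.49), positive in all 3 experiments. At 20 min the groups were separate the other way, at -1.06 (SE 0.49). These Mt4 signals cannot be told from background. In the order of genes on chromosome 8 the run is Bbs2, Mt4, Mt3, Mt2, Mt1 and Nup93. Nup93, a nuclear pore protein gene next to Mt1, averaged 1714 ± 347 with LPS plus IL-10 and 1812 ± 122 with LPS alone at 30 min, a log2 difference of -0.10 (SE 0.18, limma adjusted p = 1.00). Bbs2, on the other side of the cluster, was not tested.

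Genes that handle zinc, copper and iron were read as a list because metallothioneins bind zinc and copper. Of 36 listed, 34 were tested, and limma called none for IL-10 at 30 min, with or without the experiment as a block. At an unadjusted p under 0.05 the counts were 0 without the block and 1 with it. With IL-10, 14 of the 34 were higher, and the median was -0.0063, against 49.0% higher and a median of -0.0038 over all 12527 genes. Mtf1, the metal-sensing factor itself, averaged 416 ± 10.9 units with LPS plus IL-10 and 371 ± 105 with LPS alone, a difference of 0.19 (SE 0.26). Slc30a1, the zinc exporter that MTF1 also controls, averaged 982 ± 286 units with LPS plus IL-10 and 927 ± 245 with LPS alone, a difference of 0.08 (SE 0.29). The members farthest from 0 were the zinc transporter Slc30a2 at -0.64 (SE 0.57), Cp, the copper carrier ceruloplasmin, at -0.61 (SE 1.14), and the zinc transporter family genes Slc39a4 at -0.25 (SE 0.66) and Slc30a9 at -0.24 (SE 0.13), while the most positive member had 0.24.

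The lists for other known inducers of metallothioneins gave no call for IL-10 at 30 min in limma either, and at an unadjusted p under 0.05 the count was 0 in each. Of 20 genes of the oxidative stress response 19 were tested and 11 were higher, with a median of 0.02 and a range of -0.19 for Nqo1, a quinone reductase, to 0.28 for Mafk, a small Maf factor. Of 12 glucocorticoid-responsive genes, all tested, 10 were higher, with a median of 0.06 and a range of -0.29 for the kinase gene Sgk1 to 0.28 for the transcription factor gene Cebpd. Tsc22d3, which encodes the glucocorticoid-induced leucine zipper, had -0.21 (SE 0.50). The phosphatase gene Dusp1 of that list rose with time in both treatments, at 30 against 10 min by 1.71 with LPS plus IL-10 (limma adjusted p = 0.00447) and by 1.73 with LPS alone (limma adjusted p = 0.00979), where 0.0443% and 0.0184% of tested probe sets rose, and its difference between treatments at 30 min was 0.03 (SE 0.23). Of 12 heat shock genes 10 were tested and 6 were higher, with a median of 0.04 and a range of -0.22 for Hspa1b to 0.13 for Hspb1, both chaperone genes.

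With each gene given by its brightest tested probe set, limma called 2 of 12527 genes for IL-10 at 30 min, or 5 with the block. All of these were on the list of IL-10 and STAT3 responsive genes, which was not checked for every probe set called. All 22 were tested, 20 were higher with IL-10 at 30 min, and the median was 0.31. Limma called 2 of them higher, Socs3 and Sbno2 as above, and 5 with the experiment as a block. The block added Gadd45g (1.70), Irf1, an interferon regulatory factor gene (1.03), and Il10, whose working protein these mice lack (0.98). Their limma adjusted p with the block was 0.00261, 0.00801 and 0.0233. Etv3 was not called by its brightest probe set, 1418637_at. Its probe sets 1418635_at and 1456358_at were called with the block (limma adjusted p = 0.00227 and 0.000283). From 10 to 30 min under LPS plus IL-10, 18 of the 22 were higher with a median of 0.80. Of these 22, 3 were called higher, or 9 with the block, against 0.195% of tested probe sets with the block. Of the 34 metal-handling genes 10 were higher with a median of -0.05. Over all 12527 genes 41.0% were higher with a median of -0.036. The list was drawn up with these results known and holds the genes the study is about, so its direction is not independent evidence. Set beside it, Mt2 at 0.53 and bright Mt1 at 0.30 fell within the range of the list, -0.11 to 2.51, and dim Mt1 at 1.86 fell between Gadd45g and Socs3. That range is wide, so a value within it does not test whether a gene belongs with the list.

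**Figure D4:**
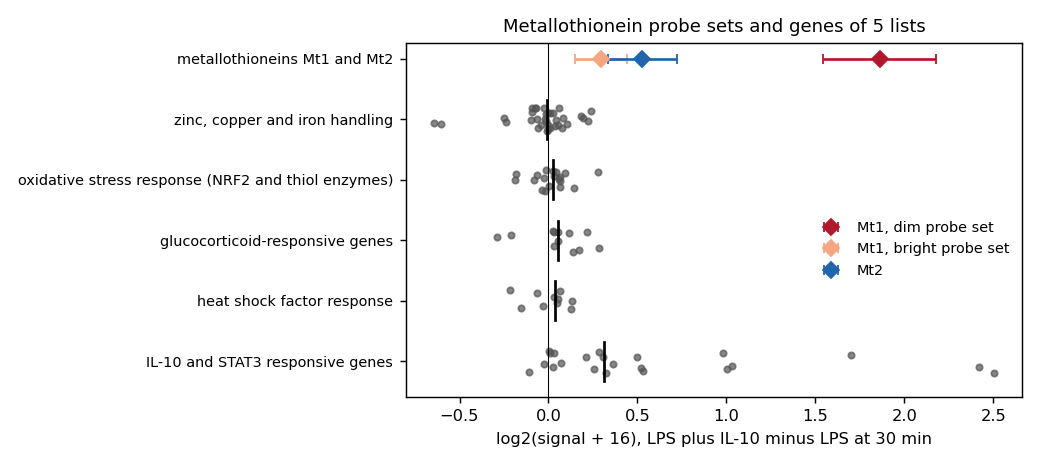
Difference in log2(signal + 16), LPS plus IL-10 minus LPS alone at 30 min, for the 3 metallothionein probe sets (diamonds with SE) and for the tested genes of 5 lists, 1 point per gene by its representative probe set, with a black bar at the list's median. The medians are -0.0063 for metal handling, 0.02, 0.06 and 0.04 for the oxidative stress, glucocorticoid and heat shock lists, and 0.31 for the IL-10 and STAT3 list.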

How the data were processed

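RNA of 18 cultures was read on 18 single-colour Affymetrix arrays. The authors deposited linear intensities, 1 per probe set and array. GCOS 1.4 made them, per the submitters' processing notes, with an algorithm not given in the sources used here. As deposited, the mean after trimming 2% of probe sets at each end is equal on every array. Depth has no count here: precision is limited by 3 arrays per group. Samples were grouped by the treatment and time in their labels. At most 104 values were equal in any pair of arrays.

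Probe sets were named from GEO's platform annotation, which can be old: 34958 had 1 symbol, 932 several and 9211 none, no symbol needed updating, and no probe set with several symbols held a metallothionein. The deposited intensities were turned into log2(signal + 16), a scale that understates changes of dim probe sets. After 64 control probe sets were left out, those at or above the array median on at least 3 arrays were tested (27110). In R 4.3.3, limma 3.58.1 (lmFit, then eBayes allowing for an intensity trend) was run on all 18 arrays with 1 term for each group and no block, which left 12 residual degrees of freedom. The two-sided p-values were adjusted over all tested probe sets by Benjamini-Hochberg, and calls needed an adjusted p under 0.05. Tables and figures used Python 3.11.15. On simulated data with 27683 probe sets, the fit recovered 30.0% of probe sets changed by 1 and 80.0% of those changed by 2 on the log2 scale in the 30 min comparison of treatments. It also made 7 false calls there. The simulated noise was independent between arrays, with no offset between experiments, unlike the real arrays. The changed probe sets were drawn from above the lower quartile of mean signal.

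The labels make each replicate number an independent experiment. Deviations from group means correlated at 0.201 to 0.642 in the 45 pairs of arrays of the same number and at -0.471 to 0.0651 in the 90 pairs of different numbers, so the numbers pair the samples, and values with the experiment as a block stand beside results they change. How many mice gave cells to an experiment is unstated in the labels.

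The members, lists, tests and alternatives were chosen with earlier results of these data known. Named genes are all metallothionein probe sets, the 5 probe sets most like each, list members called in a comparison, up to 4 per list with the largest difference at 30 min, and Socs3, Sbno2 and Etv3. The genes next to the cluster, Mtf1, Slc30a1 and the highest marker of a list were named outside this rule, after their values were seen. A gene in a list is given by its brightest tested probe set. Alternatives were quantile normalization, pseudocounts of 1 and 64, no filter and one at the 75th percentile, the replicate block, fits to the compared groups only, no intensity trend, and fits without each experiment or without the arrays that stood apart, and variance shares without 1 group.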

Additional observations from a re-analysis of the deposited data

Results flagged for a closer look

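The Mt2 difference between LPS plus IL-10 and LPS alone was -0.020 at 10 min, below 0 in all 3 experiments, and 0.53 at 30 min, above 0 in all 3, and the difference between these times was not tested. Mt2 was higher at 30 than at 20 min in all 3 experiments under LPS plus IL-10, by 0.37, and lower in all 3 under LPS alone, at -0.14, a contrast that was not tested either. Without the 2 arrays that stood apart the value under LPS alone was 0.10. It then set 30 min arrays of 3 experiments against the 20 min array of experiment 1 alone. Within experiment 1, which used neither of the 2 arrays, the value was -0.13. The probe sets most like the metallothioneins were picked on the same arrays that are tested here. The metallothioneins were themselves chosen with their signal by time and treatment known. The limma p-values below are therefore not independent evidence of a change with time. Of the probe sets most like the metallothioneins, some changed their IL-10 difference with time by limma's test of the change itself. From 10 to 20 min these were Socs3 1455899_x_at, at 2.56 (limma adjusted p = 0.36, or 0.0175 with the experiment as a block), and Socs3 1456212_x_at, at 2.33 (limma adjusted p = 1.00, or 0.0175 with the block). From 10 to 30 min they were Sbno2 1439349_at, at 2.35 (limma adjusted p = 0.0221, or 0.000332 with the block), and, with the block alone, Sbno2 1458308_at at 1.55 (limma adjusted p = 0.0458), Etv3 1456358_at at 1.39 (limma adjusted p = 0.0414), Socs3 1455899_x_at at 2.45 (limma adjusted p = 0.0171) and Socs3 1456212_x_at at 2.13 (limma adjusted p = 0.0377).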

How the results depend on the processing

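Of 474 metallothionein values under the alternatives, 458 stayed within 1 SD of the value given and 16 moved further. The filters, the replicate block, the intensity trend and fits to the compared groups alone can change an SE but not a difference. Part of the 458 was therefore fixed in advance and does not measure how stable the values are. With a pseudocount of 64 the dim Mt1 difference of 30 minus 10 min under LPS plus IL-10 was 1.84, against 2.31, since a larger pseudocount shrinks dim signals more. The 30 min differences between treatments stayed positive for all 3 probe sets under every alternative that gave a value. Leaving out 1 experiment gave 1.69 to 1.98 for dim Mt1, 0.45 to 0.62 for Mt2 and 0.25 to 0.35 for bright Mt1. The 20 min differences of Mt2 and bright Mt1, both 0.01, changed sign under some settings, down to -0.05 for Mt2 without experiment 3 and -0.10 for bright Mt1 without experiment 2. The dim set was not tested with the filter at the 75th percentile (12895 probe sets), nor in some fits to the compared groups alone.

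Counts of probe sets called over the whole array depended on the setting. For IL-10 plus LPS against LPS at 10 min no call was made (309 probe sets had an unadjusted p under 0.05 in limma), and the replicate block did not change that. The paired fit with the replicate block gave 5 calls for the 20 min comparison of treatments (2 without it), 12 at 30 min (3), 4 for 20 against 10 min with LPS alone (0, with 899 at an unadjusted p under 0.05), 30 for 30 against 10 min (5), 9 and 61 for the same times with LPS plus IL-10 (3 and 12), and 2 and 5 for how the IL-10 difference changed from 10 to 20 min (0, with 556 at an unadjusted p under 0.05) and from 10 to 30 min (1). Other counts that moved were 1 at 20 min and 3 for LPS alone at 30 against 10 min with quantile normalization; 3 for LPS alone at 30 against 10 min with a pseudocount of 1; 0, 1, 0, 1, 7 and 0 for the 20 min and 30 min treatment comparisons, LPS at 30 against 10 min, LPS plus IL-10 at 20 and 30 against 10 min, and the 10 to 30 min change with only the compared groups fitted; and 1, 2 and 0 for the 20 min comparison, LPS at 30 against 10 min and the 10 to 30 min change with no intensity trend. Without the LPS array of experiment 2 at 20 min the 20 min, 30 min and LPS 30 against 10 min comparisons gave 1, 5 and 3 calls; without that of experiment 3 the first and last gave 0 and 3; without both, 0, 6 and 3, with 0 for the 10 to 30 min change. The 12 calls for LPS plus IL-10 at 30 against 10 min became 14 without the experiment 2 array. Leaving out 1 experiment gave 0 calls at 20 min, 0 to 1 at 30 min, 0 to 2 for LPS at 30 against 10 min, 0 to 1 and 4 to 8 for LPS plus IL-10 at 20 and 30 against 10 min, and 0 for the 10 to 30 min change. With the replicate block and 1 experiment left out the ranges were 1 to 6 and 1 to 9 for the 20 and 30 min treatment comparisons, 0 to 6 and 8 to 32 for LPS alone, 4 to 10 and 19, 22 or 71 for LPS plus IL-10, and 0 to 10 and 0 to 3 for the changes to 20 and 30 min. The cause was not tested. Having 3 arrays per group and the absence of detection calls limit what can be said of the dim Mt1 signals at 10 min.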
